A study of Homo sapiens with 18 samples.

Results

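MYC and 35 genes of ribosome biogenesis were followed across all 6 groups of the series. The 36 genes were chosen by symbol as MYC and known parts of the nucleolar machinery, through the platform's probe annotation. Of the 19775 genes with a probe set of their own, 30 were among the 36, with 63 probe sets between them, and all 30 passed the filter on low values that left 13607 genes to test. NOP56, DKC1, BOP1 and PPAN appear only on probe sets that also list another gene, mostly small RNAs hosted in their introns or neighbouring transcripts, and were not measured here. DDX18 and GNL3 were named by no probe set.

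The study measured RNA from cultured human prostate cancer cells on 18 Affymetrix arrays in 6 groups of 3. LNCaP is an androgen-responsive line, and LNCaP-abl is a line derived from it that proliferates without added androgen. Each group received a control siRNA or an siRNA against TRIM24, a bromodomain protein that reads chromatin marks and acts as a cofactor of nuclear receptors, for 48 h. The question addressed is what the loss of TRIM24 does to expression with and without androgen and in both lines.

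The groups were LNCaP with control siRNA and vehicle, LNCaP with TRIM24 siRNA and vehicle, LNCaP with control siRNA and DHT, LNCaP with TRIM24 siRNA and DHT, LNCaP-abl with control siRNA and vehicle, and LNCaP-abl with TRIM24 siRNA and vehicle. DHT (dihydrotestosterone, the active androgen) was given at 10 nM for 24 h, and the vehicle was ethanol. Per the labels' growth protocol, LNCaP cells were first held for 48 h in medium with hormone-stripped serum, so the vehicle groups are androgen-starved cells. The same text is attached to the LNCaP-abl samples, and medium used only for that line is not given in the sources used here. Each line is a single tumour-derived culture and a knockdown by siRNA is partial. The labels do not say whether the 3 replicates of a group were separate cultures, and p-values therefore speak only of the array-to-array spread seen here, part or all of which may be technical.

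MYC is a transcription factor that binds the sequence CACGTG, the E-box, together with its partner MAX, and ribosome biogenesis is among the best known programmes that it drives in dividing cells. Ribosomes are built in the nucleolus. RNA polymerase I makes the long precursor of the ribosomal RNAs, small nucleolar ribonucleoproteins (snoRNPs) modify it, and separate sets of assembly factors cut and fold it into the small and the large subunit. In prostate cancer MYC is commonly raised and nucleoli are enlarged.

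A 30-base stretch around each CACGTG found near the start of a measured gene is shown because it is the sequence that MYC binds. The windows run from 250 bases before to 50 bases after a transcript start in RefSeq, build GRCh38.p14, and a gene counts where at least 1 of its windows holds the motif. CACGTG reads the same on both strands, and only this spelling was searched. It was found in 11 of the 24 measured members with a window (45.8%). Over all 27305 genes with a window the share was 8.77%, and among the 21852 genes whose windows lie in the members' range of GC content, 43.7% to 79.0%, it was 10.1%. The sequences are read 5′ to 3′ on the gene's strand with the motif in capitals.
DDX21, chr10:68956604-68956633, + strand: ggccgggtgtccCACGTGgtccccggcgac
LYAR, chr4:4290068-4290097, - strand: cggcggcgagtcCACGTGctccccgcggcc
MYBBP1A, chr17:4555340-4555369, - strand: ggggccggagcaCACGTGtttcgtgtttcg
BYSL, chr6:41921515-41921544, + strand: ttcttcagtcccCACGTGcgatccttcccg
RRP9, chr3:51941892-51941921, - strand: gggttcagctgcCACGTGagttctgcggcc
UTP20, chr12:101280083-101280112, + strand: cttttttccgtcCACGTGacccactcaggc
WDR43, chr2:28894658-28894687, + strand: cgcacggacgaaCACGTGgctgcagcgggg
FBL, chr19:39846356-39846385, - strand: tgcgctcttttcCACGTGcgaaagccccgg
GAR1, chr4:109815781-109815810, + strand: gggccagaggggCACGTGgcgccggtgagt
PES1, chr22:30591880-30591909, - strand: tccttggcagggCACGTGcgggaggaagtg
NOP2, chr12:6568242-6568271, - strand: gctaggtccggattgCACGTGgagggccgc

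Positions are counted from the transcript start on which each window was built, and RefSeq annotates other starts for some of these genes. DDX21, LYAR and GAR1 have 2 windows, with the motif in 1 of them, and the annotated outer ends of BYSL and PES1 lie well upstream of their windows. In DDX21, LYAR, RRP9 and UTP20 the motif begins 31, 64, 5 and 10 bases before the window's start site. In the other 7 genes it begins after that site, from base 4 in WDR43 to base 36 in NOP2. A match describes the letters of the window and is not a measurement of MYC binding.

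The deposited values are log2 expression values, and every level and difference below is on that scale, where a difference of 1 doubles the signal. Array medians lay between 5.83 and 5.93. TRIM24 itself changed by -1.99, -2.14 and -2.08 after its siRNA in vehicle-treated LNCaP, DHT-treated LNCaP and LNCaP-abl. Its level also differed between the other arms. DHT raised it by 0.44 with control siRNA and by 0.30 with TRIM24 siRNA. LNCaP-abl differed from LNCaP by -0.17 with control siRNA and vehicle. Of the 9 luminal prostate markers measured, 7 stayed above every array's median throughout, while the androgen targets KLK3 and KLK2 ranged from 5.35 to 14.16 and from 4.91 to 10.61. Markers of other cell types were not uniformly dim. The dimmest and brightest leukocyte genes measured were PTPRC, at 3.13 to 3.54, and CD3E, at 5.53 to 6.13. For fibroblasts these were LUM, at 3.55 to 5.42, and COL1A1, at 7.15 to 7.58. For endothelium they were KDR, at 3.35 to 3.81, and VWF, at 6.07 to 6.76. For basal epithelium they were KRT14, at 3.77 to 5.08, and KRT5, at 5.46 to 5.95. The log2 ratio of 3′ to 5′ signal of GAPDH, a measure of RNA integrity and labelling, was higher in each knockdown group than in its control, at means of 0.59 against 0.52 for vehicle-treated LNCaP, 0.63 against 0.56 under DHT, and 0.64 against 0.56 in LNCaP-abl. That of ACTB was also higher, at 2.05 against 1.87, 2.19 against 1.85 and 1.99 against 1.87 in the same order, with the widest gap under DHT. As these are whole cultures, fewer cells of one state and less RNA per cell cannot be told apart.

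After knockdown of TRIM24 MYC was higher in all 3 settings, while more of the other called members rose than fell in LNCaP and all of them fell in LNCaP-abl. In LNCaP with vehicle 11 of the 30 measured members rose and 5 fell, with a median difference of 0.04. A gene counts as called, and as risen or fallen, where limma's adjusted p is under 0.05. Of all 13607 genes 38.5% were called in this comparison, 20.5% higher and 18% lower, and their median difference was 0.00. With DHT the members again gave 11 rises and 5 falls, with a median of 0.09, against 40.2% of all genes called, 19.4% higher and 20.8% lower, with a median of 0.01. In LNCaP-abl only MYC rose and 20 members fell, with a median of -0.14, against 45.6% of all genes called, 16.7% higher and 28.8% lower, with a median of -0.01. The 3 knockdown comparisons share no arrays.

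The size of the fall in LNCaP-abl depends on how arrays are scaled. After quantile normalization 3 members were called higher and 14 lower there, and after centring on the array median 1 higher and 21 lower. The calls over all genes moved in the same way, from 2276 higher and 3925 lower as deposited to 3019 and 3131 after quantile normalization and 1607 and 4527 after centring.

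**Figure D1:**
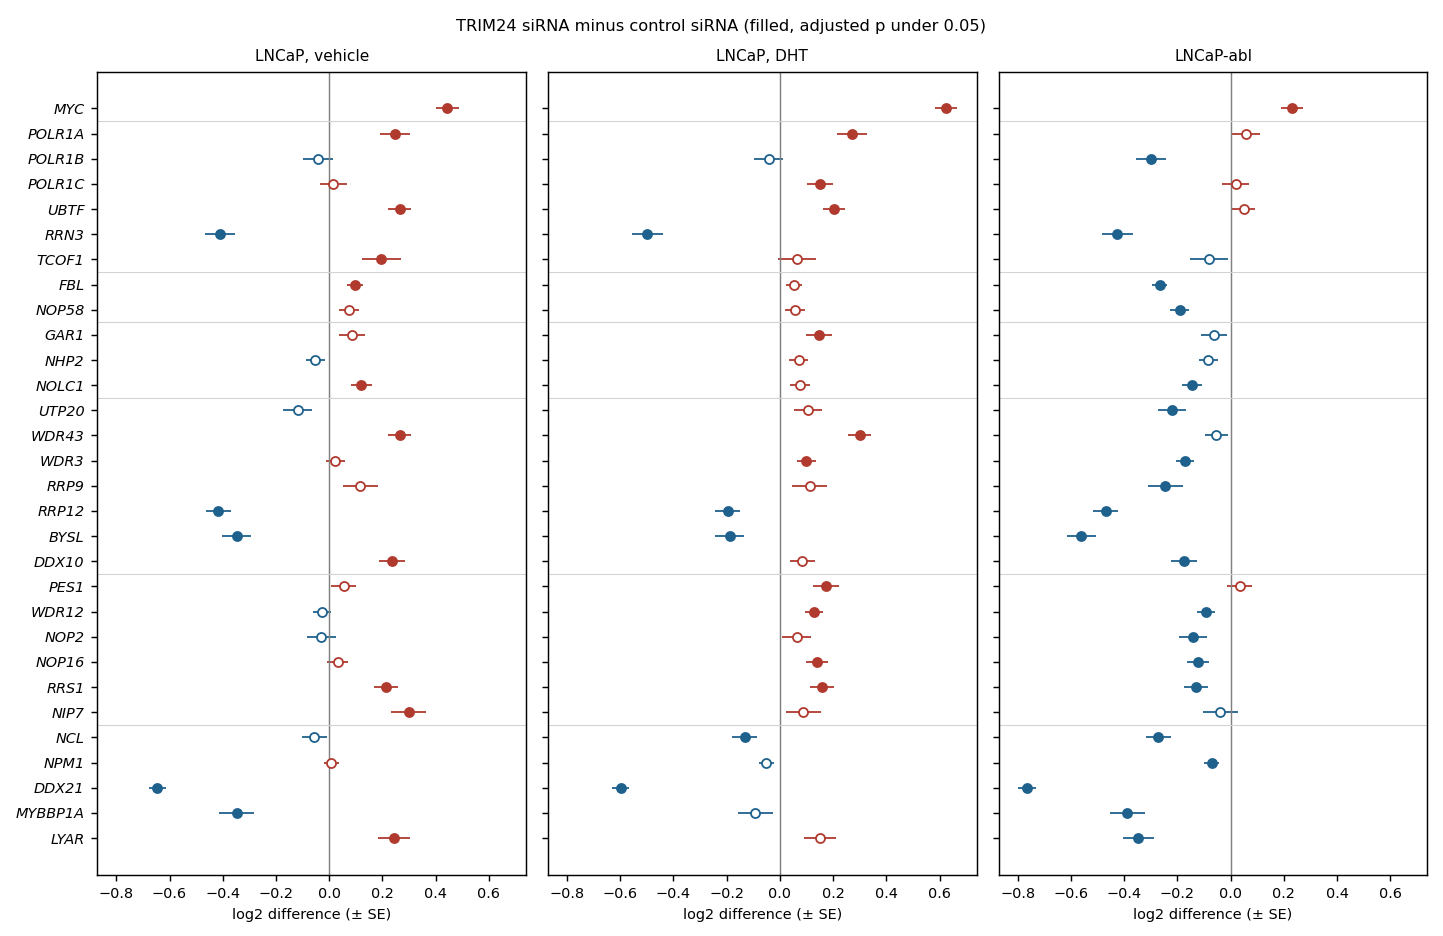
Difference between TRIM24 siRNA and control siRNA for the 30 measured members, on the log2 scale (x axis), for vehicle-treated LNCaP, DHT-treated LNCaP and LNCaP-abl. Points are differences of group means with standard errors, filled where the adjusted p is under 0.05, and grey lines part the roles; MYC lies right of 0 in all 3 panels and DDX21 is the point farthest to the left, at -0.65, -0.60 and -0.77.

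MYC read 11.27, 11.32 and 11.37 with control siRNA and 11.70, 11.81 and 11.78 with TRIM24 siRNA in LNCaP with vehicle. With DHT it read 10.97, 10.92 and 10.88 with control siRNA and 11.55, 11.53 and 11.57 with TRIM24 siRNA. In LNCaP-abl the values were 10.58, 10.70 and 10.61 with control siRNA and 10.90, 10.85 and 10.84 with TRIM24 siRNA. In each setting every knockdown array was above every control array. The rises were 0.44 ± 0.04 (SE; limma adjusted p = 3.57e-07), 0.62 ± 0.04 (limma adjusted p = 6.78e-09) and 0.23 ± 0.04 (limma adjusted p = 0.000271), or ratios of 1.36, 1.54 and 1.17 on the linear scale. MYC was the only member called higher in all 3 comparisons, as were 6.75% of all genes. The rise was smaller in LNCaP-abl than in LNCaP with vehicle by a tested difference of -0.21 ± 0.06 (limma adjusted p = 0.0133), while the larger rise with DHT than with vehicle, a difference of 0.18 ± 0.06, did not pass (limma adjusted p = 0.06).

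**Figure D2:**
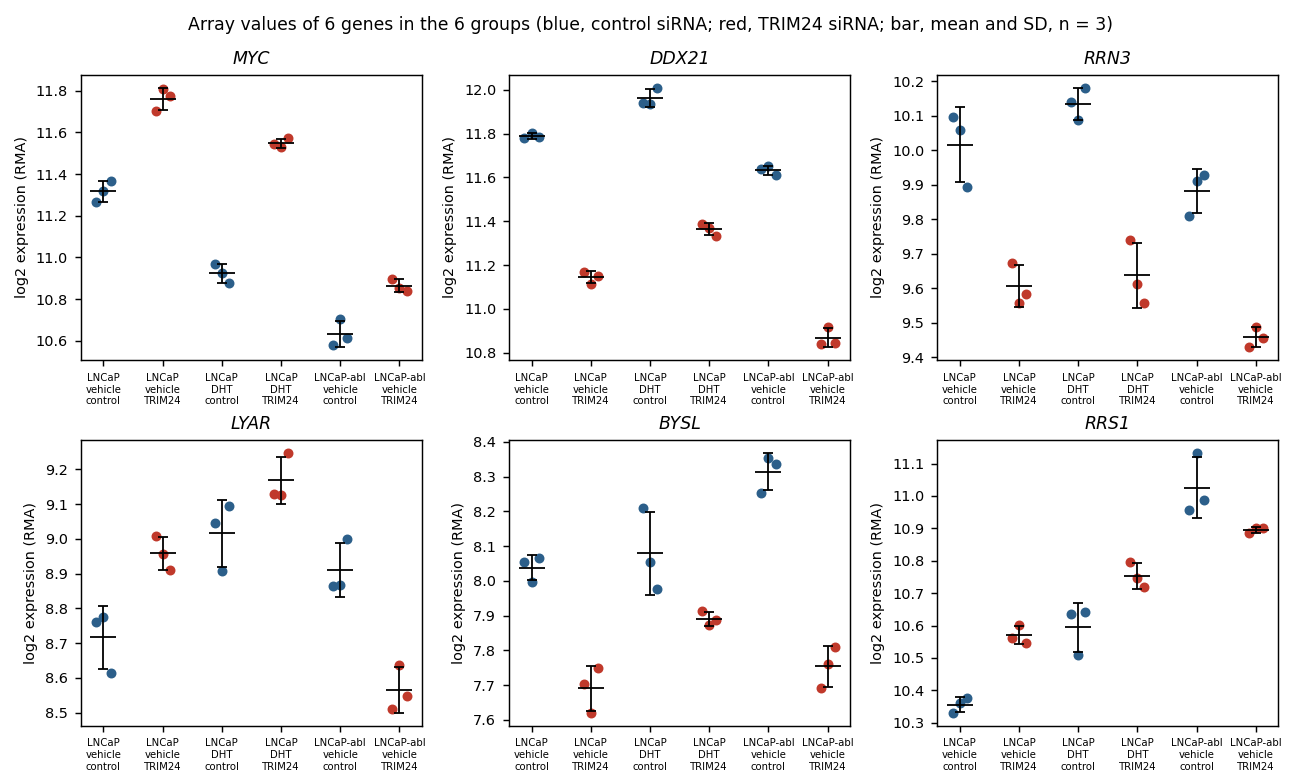
Expression of MYC, DDX21, RRN3, LYAR, BYSL and RRS1 on the log2 scale (y axis, each panel with its own range) on every array of the 6 groups. Blue points are control siRNA and red points TRIM24 siRNA, and black bars give the mean and SD of 3 arrays; for DDX21 and RRN3 all red points lie below the blue points of the same line and treatment, and for LYAR red lies above blue in LNCaP and below it in LNCaP-abl.

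Among the genes of RNA polymerase I transcription, the initiation factor RRN3 fell in all 3 settings, while the subunit POLR1A and the promoter factor UBTF rose in both LNCaP settings. RRN3, also called TIF-IA, brings the polymerase to its promoter and is a point where growth signals act. It read 10.10, 10.06 and 9.89 with control siRNA and 9.67, 9.56 and 9.58 with TRIM24 siRNA in LNCaP with vehicle. With DHT its values were 10.14, 10.09 and 10.18 against 9.74, 9.61 and 9.56 after knockdown, and in LNCaP-abl 9.81, 9.91 and 9.93 against 9.43, 9.49 and 9.46. No knockdown array reached a control array. The falls were -0.41 ± 0.06 (limma adjusted p = 2.91e-05), -0.50 ± 0.06 (limma adjusted p = 3.53e-06) and -0.43 ± 0.06 (limma adjusted p = 1.81e-05). Other probe sets that hold RRN3 also list its pseudogene copies and were not used, and a contribution of those copies to this signal was not tested.

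POLR1A encodes the largest subunit of the polymerase. It read 8.94, 8.92 and 9.01 with control siRNA and 9.20, 9.27 and 9.16 with TRIM24 siRNA in LNCaP with vehicle, and 8.91, 8.90 and 8.94 against 9.10, 9.22 and 9.25 with DHT. These groups did not overlap, and the rises were 0.25 ± 0.06 (limma adjusted p = 0.00204) and 0.27 ± 0.06 (limma adjusted p = 0.000952). In LNCaP-abl the control values of 8.30, 8.52 and 8.39 overlapped with 8.52, 8.47 and 8.38 after knockdown, a difference of 0.06 ± 0.06. Its 2 dimmer probe sets gave 0.07 and -0.01 in LNCaP with vehicle, and with the mean of the 3 the call was lost (0.10, limma adjusted p = 0.0973).

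UBTF, which bends ribosomal DNA and keeps it open for transcription, read 8.13, 8.08 and 8.16 in the control arrays of LNCaP with vehicle and 8.42, 8.41 and 8.33 in the knockdown arrays. With DHT it read 8.06, 8.02 and 7.99 against 8.17, 8.21 and 8.31. The groups were apart in both, with rises of 0.26 ± 0.04 (limma adjusted p = 0.000106) and 0.20 ± 0.04 (limma adjusted p = 0.00101). In LNCaP-abl it differed by 0.05 ± 0.04, and the change between the lines was -0.22 ± 0.06 (limma adjusted p = 0.0139). The 4 dimmer probe sets of UBTF ran from -0.03 to 0.11 with vehicle and from -0.26 to 0.20 with DHT, and the mean of its probe sets gave -0.03 with DHT.

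The remaining polymerase members were less uniform. POLR1B, the second largest subunit, read 9.65, 9.69 and 9.76 in LNCaP-abl controls and 9.42, 9.37 and 9.42 after knockdown, with no overlap and a fall of -0.30 ± 0.06 (limma adjusted p = 0.00038), while 1 of its 3 other probe sets gave 0.15. In LNCaP it differed by -0.04 with either treatment, and the mean of its probe sets gave 0.13 with vehicle. POLR1C, a subunit shared with RNA polymerase III, rose by 0.15 with DHT and differed by 0.02 in both other settings, and its call was lost without control replicate 2 or knockdown replicate 2 or 3 (limma adjusted p up to 0.111). TCOF1, which couples polymerase I to early processing, rose by 0.20 in LNCaP with vehicle. That call was lost without control replicate 1 or 3 or knockdown replicate 1 or 2 (limma adjusted p up to 0.18), and the probe sets of TCOF1 gave 0.20, 0.20 and -0.17.

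Of the 5 snoRNP proteins measured, FBL, NOP58 and NOLC1 fell in LNCaP-abl, and none fell in LNCaP. FBL (fibrillarin) is the methyltransferase of box C/D particles. It read 11.35, 11.35 and 11.41 with control siRNA and 11.46, 11.46 and 11.49 with TRIM24 siRNA in LNCaP with vehicle, a rise of 0.10 ± 0.03 (limma adjusted p = 0.0164). In LNCaP-abl it read 11.12, 11.18 and 11.16 against 10.91, 10.87 and 10.88, groups that do not overlap, and fell by 0.27 ± 0.03 (limma adjusted p = 2.26e-06). The change between the lines was -0.36 ± 0.04 (limma adjusted p = 1.56e-05). The small rise in LNCaP was lost without control replicate 1 or 2 or knockdown replicate 3, at 0.09 (limma adjusted p up to 0.0653).

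NOP58, the scaffold of the same particles, read 11.67, 11.68 and 11.75 in LNCaP-abl controls and 11.49, 11.50 and 11.54 after knockdown, with no overlap and a difference of -0.19 ± 0.04 (limma adjusted p = 0.000502). In LNCaP its differences of 0.07 and 0.06 were not called. Of the box H/ACA proteins, which guide pseudouridylation, NOLC1 (a chaperone of the particles) rose by 0.12 in LNCaP with vehicle and fell by 0.14 in LNCaP-abl, the former lost without control replicate 2 or knockdown replicate 1 (limma adjusted p up to 0.072) and the latter turned to 0.0098 with the most variable probe set of NOLC1. GAR1 rose by 0.15 with DHT although its groups overlap, a call lost without control replicate 2 or 3 or knockdown replicate 1 or 2 (limma adjusted p up to 0.108), and NHP2 was called in none of the 3 settings (-0.05, 0.07 and -0.08).

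Of the 7 small subunit factors, BYSL and RRP12 fell in all 3 settings, while WDR43 rose in both LNCaP settings. BYSL (bystin) is needed for late maturation of the small subunit. Its values were 8.05, 7.996 and 8.06 in controls and 7.70, 7.62 and 7.75 after knockdown in LNCaP with vehicle. With DHT it read 8.21, 8.05 and 7.98 against 7.91, 7.87 and 7.89, and in LNCaP-abl 8.25, 8.35 and 8.34 against 7.69, 7.76 and 7.81. The knockdown arrays were lower throughout, most widely in LNCaP-abl. The falls were -0.35 ± 0.05 (limma adjusted p = 7.95e-05), -0.19 ± 0.05 (limma adjusted p = 0.0102) and -0.56 ± 0.05 (limma adjusted p = 4.51e-07), and the call with DHT was lost without replicate 1 of its control group (-0.12, limma adjusted p = 0.0614).

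RRP12, a factor for export and maturation of subunit precursors, read 8.44, 8.45 and 8.51 against 8.04, 7.95 and 8.15 after knockdown in LNCaP with vehicle. With DHT the values were 8.46, 8.46 and 8.40 against 8.22, 8.25 and 8.25, and in LNCaP-abl 8.25, 8.25 and 8.21 against 7.82, 7.79 and 7.68. All 3 pairs of groups were apart. The falls were -0.42 ± 0.05 (limma adjusted p = 2.96e-06), -0.20 ± 0.05 (limma adjusted p = 0.00319) and -0.47 ± 0.05 (limma adjusted p = 7.71e-07). They rest on 1 probe set: the other 4 have means of 5.58 to 6.05, near the filter, and with the mean of its probe sets RRP12 differed by -0.04 in LNCaP with vehicle (limma adjusted p = 0.543), by -0.09 with DHT (limma adjusted p = 0.138) and by -0.07 in LNCaP-abl (limma adjusted p = 0.242).

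WDR43, a subunit of the complex that joins transcription to early processing, rose only in LNCaP. It read 9.46, 9.43 and 9.40 in controls and 9.74, 9.66 and 9.68 after knockdown with vehicle, and 9.55, 9.48 and 9.56 against 9.88, 9.79 and 9.82 with DHT. The groups were apart, with rises of 0.26 ± 0.04 (limma adjusted p = 0.000158) and 0.30 ± 0.04 (limma adjusted p = 4.27e-05). In LNCaP-abl 9.50, 9.58 and 9.67 overlapped with 9.50, 9.56 and 9.54, and the change between the lines was -0.32 ± 0.06 (limma adjusted p = 0.00146). DDX10, an RNA helicase, moved in opposite directions: 9.45, 9.50 and 9.50 became 9.71, 9.69 and 9.76 in LNCaP with vehicle (0.24 ± 0.05, limma adjusted p = 0.000994), and 9.42, 9.51 and 9.34 became 9.25, 9.27 and 9.22 in LNCaP-abl (-0.18 ± 0.05, limma adjusted p = 0.00764). With the mean of DDX10's probe sets, the other of which is dim at a mean of 3.39, these were 0.08 (limma adjusted p = 0.478) and -0.10 (limma adjusted p = 0.325), and after quantile normalization the fall was -0.09 (limma adjusted p = 0.123).

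Of the other processome members, UTP20, WDR3 and RRP9 fell in LNCaP-abl by 0.22, 0.17 and 0.24, of which UTP20 missed the threshold after quantile normalization (-0.12) and WDR3 with the mean of its probe sets (-0.12). RRP9, which binds the U3 snoRNA, read 7.16, 7.23 and 7.16 there in controls and 7.14, 6.83 and 6.85 after knockdown, so 1 knockdown array lay close to the controls. In LNCaP with vehicle none of these 3 was called, and with DHT only WDR3 rose, by 0.10, a call lost without control replicate 2 or 3 or knockdown replicate 1 or 3 (limma adjusted p up to 0.102).

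Of the 6 large subunit factors measured, RRS1 and NIP7 rose in LNCaP with vehicle, and 4 fell in LNCaP-abl. RRS1, which helps to place the 5S particle, read 10.33, 10.36 and 10.38 in controls and 10.56, 10.60 and 10.55 after knockdown in LNCaP with vehicle, and 10.64, 10.51 and 10.64 against 10.79, 10.75 and 10.72 with DHT. It rose by 0.21 ± 0.05 (limma adjusted p = 0.00141) and 0.16 ± 0.05 (limma adjusted p = 0.0111), with no overlap, although the call with DHT was lost without control replicate 2 or knockdown replicate 1 (limma adjusted p up to 0.0635). In LNCaP-abl 10.96, 11.13 and 10.99 became 10.89, 10.90 and 10.90, a fall of 0.13 ± 0.05 (limma adjusted p = 0.0296) that was lost without replicate 2 of the control group (-0.08, limma adjusted p = 0.169) or without any single knockdown array.

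NIP7, which joins early large subunit precursors, read 9.53, 9.52 and 9.28 in controls and 9.77, 9.74 and 9.71 after knockdown in LNCaP with vehicle, a rise of 0.30 ± 0.07 (limma adjusted p = 0.00182) in which the control arrays were the more spread. It differed by 0.09 with DHT and by -0.04 in LNCaP-abl. PES1, WDR12 and NOP16 rose with DHT by 0.17, 0.13 and 0.14 and were not called with vehicle, and the mean of probe sets lost the calls of WDR12 (0.11) and NOP16 (0.03). PES1 and WDR12 are partners in 1 complex with BOP1, which was not measured. In LNCaP-abl WDR12, NOP2 and NOP16 fell by 0.09, 0.14 and 0.12, and each of these 3 calls was lost without control replicate 2, among other arrays, at limma adjusted p up to 0.192. After quantile normalization all 3 missed the threshold, and with the mean of probe sets WDR12 turned to 0.02.

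The nucleolar regulators held the largest single change. DDX21, an RNA helicase that links polymerase I and polymerase II transcription to rRNA processing, read 11.78, 11.81 and 11.79 in controls and 11.17, 11.12 and 11.15 after knockdown in LNCaP with vehicle. With DHT it read 11.94, 11.94 and 12.01 against 11.39, 11.37 and 11.33. In LNCaP-abl its values were 11.64, 11.65 and 11.61 against 10.84, 10.92 and 10.85. The gap between the groups was many times the spread within them. DDX21 fell by 0.65 ± 0.03 (limma adjusted p = 3.71e-10), 0.60 ± 0.03 (limma adjusted p = 8.54e-10) and 0.77 ± 0.03 (limma adjusted p = 4.23e-11), to 0.639, 0.661 and 0.588 of the control level on the linear scale. Its second probe set gave -0.61, -0.51 and -0.64.

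MYBBP1A, a partner of MYB that also acts on rRNA synthesis and p53, read 8.12, 8.11 and 8.13 in controls and 7.81, 7.70 and 7.80 after knockdown in LNCaP with vehicle. In LNCaP-abl it read 8.12, 7.98 and 7.96 against 7.59, 7.76 and 7.55. It fell by 0.35 ± 0.07 (limma adjusted p = 0.000567) and 0.39 ± 0.07 (limma adjusted p = 0.000187), with groups apart. With DHT 8.02, 8.06 and 8.09 overlapped with 7.94, 7.84 and 8.11, a difference of -0.09 that was not called.

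LYAR, a zinc finger protein found in nucleoli of dividing cells, showed the widest split between the lines. It read 8.76, 8.78 and 8.61 in controls and 9.01, 8.96 and 8.91 after knockdown in LNCaP with vehicle, and 8.87, 8.87 and 8.9999 against 8.51, 8.64 and 8.55 in LNCaP-abl. The groups were apart in both lines and in opposite order. It rose by 0.24 ± 0.06 (limma adjusted p = 0.00428) in LNCaP and fell by 0.35 ± 0.06 (limma adjusted p = 0.000201) in LNCaP-abl, and its second probe set gave 0.25 and -0.26. The change between the lines was -0.59 ± 0.08 (limma adjusted p = 0.000129). Knockdown under DHT gave LYAR a difference of 0.15 ± 0.06 that was not called (limma adjusted p = 0.0552).

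NCL (nucleolin), an abundant protein that shapes nucleolar chromatin and pre-rRNA, read 12.44, 12.45 and 12.47 in LNCaP-abl controls and 12.19, 12.15 and 12.21 after knockdown, with no overlap. The fall was 0.27 ± 0.05 (limma adjusted p = 0.000222), and the mean of NCL's probe sets gave -0.08 (limma adjusted p = 0.115). In LNCaP it fell by 0.13 with DHT, a call lost without any single array except control replicate 2 (limma adjusted p up to 0.124), and differed by -0.06 with vehicle. NPM1, the major granular protein of the nucleolus, lay between 13.66 and 13.80 on all arrays and fell by 0.07 in LNCaP-abl, while 2 other probe sets gave -0.20 and -0.22. Its call was lost without replicate 1 or 3 of either group (limma adjusted p up to 0.179) and after quantile normalization (-0.03).

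DDX21, RRN3, RRP12 and BYSL were the members called lower in all 3 knockdown comparisons, as were 11.3% of all genes. Array values of both groups did not overlap for 19, 22 and 22 of the 30 members in the vehicle, DHT and LNCaP-abl comparisons, against 50.9%, 49.7% and 52% of all genes. With a covariate for RNA integrity, taken from the 3′ and 5′ control probe sets of GAPDH and ACTB, 12, 4 and 15 members were called in place of 16, 16 and 21. Calls over all genes also fell, from 5237 to 3773, from 5468 to 2669 and from 6201 to 4964. The 4 called with DHT were MYC and WDR43, higher, and DDX21 and RRN3, lower.

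The difference between the lines was then tested directly, as knockdown in LNCaP-abl minus knockdown in LNCaP with vehicle. It was called for 15 of the 30 members, all of them lower in LNCaP-abl, with a median of -0.20 over the 30. Over all genes 28.5% were called, 8.58% higher and 19.9% lower, with a median of -0.03. FBL, NOLC1, DDX10, RRS1 and LYAR rose in LNCaP with vehicle and fell in LNCaP-abl, and all 5 passed the test of the difference. After quantile normalization the rises of FBL (0.07) and NOLC1 (0.10) and the falls of DDX10 (-0.09) and RRS1 (-0.08) missed the threshold. RRP9, NOP58, POLR1B, NCL and WDR3 fell in LNCaP-abl and were not called in LNCaP with vehicle, at differences of -0.36, -0.27, -0.26, -0.21 and -0.20 between the lines. RRN3, RRP12, MYBBP1A and DDX21, which fell in both lines, differed between them by -0.01, -0.05, -0.04 and -0.12, and none of these passed the test. BYSL also fell in both lines, and its difference of -0.21 did pass (limma adjusted p = 0.0473). That call was lost under 17 of the 25 alternatives run.

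Under quantile normalization 12 and after median centring 20 of the 30 members differed between the lines, again all lower, while over all genes the split moved from 1168 higher and 2712 lower to 1644 and 1827 after quantile normalization and 757 and 3404 after centring. With the mean of probe sets the difference of DDX10 was -0.18 (limma adjusted p = 0.261), those of UBTF and WDR3 also missed the threshold, and that of NCL turned to 0.03. The differences of BYSL, POLR1B and NCL were lost without LNCaP-abl control replicate 3 or LNCaP-abl knockdown replicate 2, among other arrays (limma adjusted p up to 0.109).

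**Figure D3:**
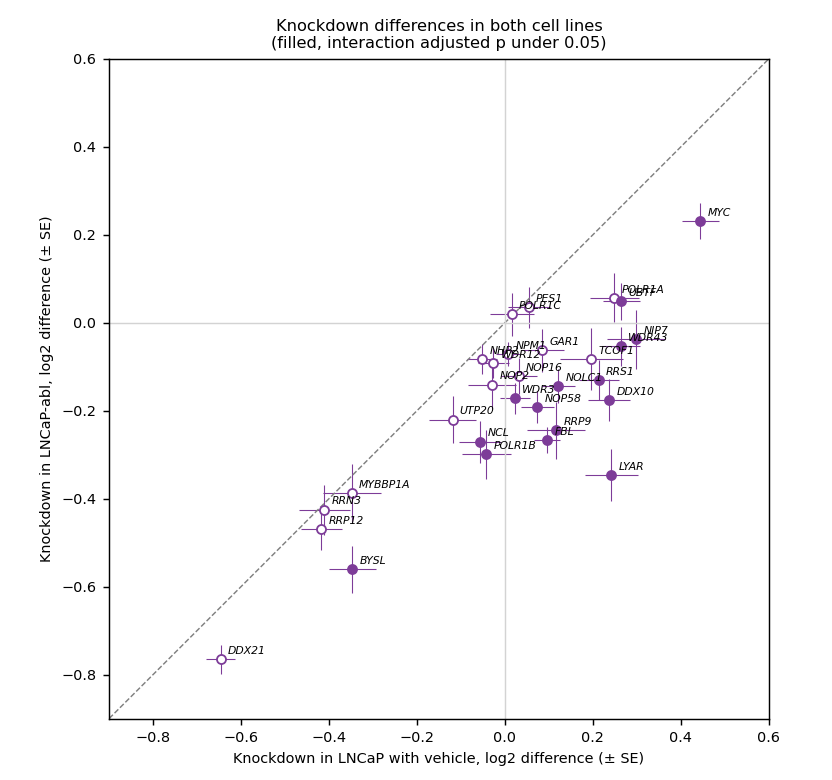
Knockdown difference on the log2 scale in LNCaP with vehicle (x axis) and in LNCaP-abl (y axis) for the 30 measured members, with standard errors; the dashed line marks equal differences. Filled points passed the test of the difference between the lines at an adjusted p under 0.05, and all 15 of them lie below the line, LYAR farthest at 0.24 and -0.35.

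Proliferation genes fell in LNCaP-abl, where most called members fell too, and more of them fell than rose in LNCaP, where more members rose than fell. All 20 genes of a fixed list of cell cycle markers were measured, and 19 of them fell in LNCaP-abl after knockdown, with a median of -1.34. CCNA2 (cyclin A2) changed by -2.11 ± 0.11 and TOP2A (topoisomerase II alpha) by -2.03 ± 0.07 there. The summed linear signal of the 20 genes was 14821 to 15300.1 on the LNCaP-abl control arrays and 6545 to 6712 on the knockdown arrays. In LNCaP it was 6811 to 7030.2 against 6020 to 6163 with vehicle, where 2 of the 20 rose and 9 fell, and 7448 to 7924 against 6014 to 6155 with DHT, where 1 rose and 12 fell. The part of proliferation in the members' changes was not tested.

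Androgen lowered MYC and split the rest of the genes. DHT was compared with vehicle in LNCaP, once with control siRNA and once with TRIM24 siRNA. These comparisons use the same arrays as the knockdown comparisons in LNCaP, so the signs of both are tied and only each one's own values are given. With control siRNA 5 members rose and 7 fell, with a median of 0.01, against 45.7% of all genes called, 19.4% higher and 26.4% lower, with a median of -0.04. With TRIM24 siRNA 8 rose and 5 fell, with a median of 0.01, against 43.5% of all genes, 16.9% higher and 26.6% lower, with a median of -0.04. Arrays with and without DHT did not overlap for 18 members with control siRNA and 21 with TRIM24 siRNA, against 52.5% and 56.4% of all genes.

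MYC fell from 11.27, 11.32 and 11.37 to 10.97, 10.92 and 10.88 with control siRNA, a change of -0.39 ± 0.04 (limma adjusted p = 8.28e-07). With TRIM24 siRNA it fell from 11.70, 11.81 and 11.78 to 11.55, 11.53 and 11.57, a change of -0.21 ± 0.04 (limma adjusted p = 0.000496). The DHT arrays were lower in both cases, and the 3 arrays with both knockdown and DHT were all above the 3 with control siRNA and vehicle.

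Several assembly factors went up with DHT while MYC went down. NOP16, a large subunit factor, read 10.38, 10.47 and 10.46 with vehicle and 10.64, 10.64 and 10.65 with DHT under control siRNA, and 10.50, 10.43 and 10.48 against 10.76, 10.78 and 10.82 under TRIM24 siRNA. It rose by 0.21 ± 0.04 (limma adjusted p = 0.000557) and 0.32 ± 0.04 (limma adjusted p = 8.24e-06), with no overlap. LYAR read 9.05, 8.91 and 9.09 with DHT and control siRNA and 9.13, 9.13 and 9.25 with DHT and TRIM24 siRNA, above the vehicle arrays in both cases. It rose by 0.30 ± 0.06 (limma adjusted p = 0.000628) and 0.21 ± 0.06 (limma adjusted p = 0.00917), the second of which was just lost without replicate 3 of the knockdown group with DHT (0.17, limma adjusted p = 0.0502). RRS1 rose by 0.24 and 0.18 and DDX21 by 0.17 and 0.22, each in both settings.

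NIP7 rose by 0.30 ± 0.07 (limma adjusted p = 0.0015) with control siRNA, from 9.53, 9.52 and 9.28 to 9.70, 9.67 and 9.85, and by 0.09, not called, with TRIM24 siRNA. In the knockdown BYSL, RRP12 and MYBBP1A rose with DHT by 0.20, 0.19 and 0.19, where with control siRNA they differed by 0.04, -0.03 and -0.06. The rise of RRP12 turned to -0.03 with the mean of its probe sets. The rise of MYBBP1A was 0.12 without knockdown replicate 3 with DHT (limma adjusted p = 0.162) and 0.16 without knockdown replicate 2 with vehicle (limma adjusted p = 0.116). The difference of these differences was tested for every member, and only RRP12 passed, at 0.22 ± 0.07 (limma adjusted p = 0.0447), against 11.1% of all genes called, 5.38% higher and 5.7% lower. That call was lost without any single array except replicate 3 of the knockdown group with vehicle, and it reversed to -0.05 with the mean of RRP12's probe sets.

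By their brightest probe sets WDR12 and POLR1B fell with DHT. WDR12, a scaffold of large subunit assembly, went from 10.36, 10.37 and 10.46 to 10.13, 10.10 and 10.15 with control siRNA and from 10.39, 10.37 and 10.35 to 10.27, 10.24 and 10.26 with TRIM24 siRNA. It fell by 0.27 ± 0.03 (limma adjusted p = 7.68e-06) and 0.12 ± 0.03 (limma adjusted p = 0.012), with no overlap. Its 2 other probe sets are dim, with means of 5.67 and 5.62, and the mean of WDR12's probe sets gave -0.0094 (limma adjusted p = 0.894) and 0.02 (limma adjusted p = 0.774). POLR1B fell by 0.19 in both, although with control siRNA 1 DHT array lay among the vehicle arrays and its most variable probe set gave 0.07 (limma adjusted p = 0.479). NHP2, WDR3, UTP20 and PES1 fell by 0.17, 0.16, 0.14 and 0.13 with control siRNA, and UBTF and FBL by 0.16 and 0.08 with TRIM24 siRNA. With control siRNA the calls of UTP20, PES1 and POLR1B were lost without vehicle replicate 2, 1 or 1, among other arrays, and with TRIM24 siRNA that of FBL without any single array, at limma adjusted p up to 0.181.

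Between the lines themselves, control cells of LNCaP-abl had the lower MYC and a mixed set of nucleolar genes. This comparison shares its arrays with those above. Of the 30 members 12 were higher and 10 lower in LNCaP-abl, with a median of 0.02, and 63.8% of all genes were called, 29.1% higher and 34.6% lower, with a median of -0.02. The arrays did not overlap for 22 of the 30 members and for 66.6% of all genes.

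MYC read 10.58, 10.70 and 10.61 in LNCaP-abl against 11.27, 11.32 and 11.37 in LNCaP, lower on every array by -0.68 ± 0.04 (limma adjusted p = 3.73e-10), a ratio of 0.622. RRS1 went the other way, with 10.96, 11.13 and 10.99 against 10.33, 10.36 and 10.38, a difference of 0.67 ± 0.05 (limma adjusted p = 1.75e-09). GAR1, a core box H/ACA protein, read 10.20, 10.32 and 10.27 against 9.71, 9.78 and 9.66 and was higher by 0.55 ± 0.05 (limma adjusted p = 5.88e-08).

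Subunits of the same polymerase differed in direction. POLR1A read 8.30, 8.52 and 8.39 in LNCaP-abl against 8.94, 8.92 and 9.01, lower by -0.56 ± 0.06 (limma adjusted p = 1.91e-07). POLR1C read 9.63, 9.56 and 9.68 against 9.14, 9.18 and 9.19, higher by 0.45 ± 0.05 (limma adjusted p = 6.39e-07). In neither case did the lines overlap.

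Large and small subunit factors were split in the same way. PES1 read 8.58, 8.63 and 8.58 against 8.90, 8.90 and 8.97 and was lower by -0.33 ± 0.05 (limma adjusted p = 1.21e-05), while its partner WDR12 was higher by 0.19 ± 0.03 (limma adjusted p = 0.000128). NOP58 read 11.67, 11.68 and 11.75 against 11.42, 11.41 and 11.35 and was higher by 0.31 ± 0.04 (limma adjusted p = 1.71e-06), while FBL of the same particle was lower by -0.22 ± 0.03 (limma adjusted p = 7.23e-06). WDR3 read 10.81, 10.82 and 10.78 against 11.15, 11.08 and 11.09 and was lower by -0.30 ± 0.03 (limma adjusted p = 8.94e-07), a call lost with the mean of its probe sets (-0.07, limma adjusted p = 0.375). The calls of UBTF, NHP2, RRP9, POLR1B, TCOF1 and LYAR, between -0.17 and 0.22, were lost without LNCaP-abl replicate 3, among other arrays (limma adjusted p up to 0.117). All 20 proliferation markers were higher in LNCaP-abl, with a median of 1.13, and their part was not tested.

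**Figure D4:**
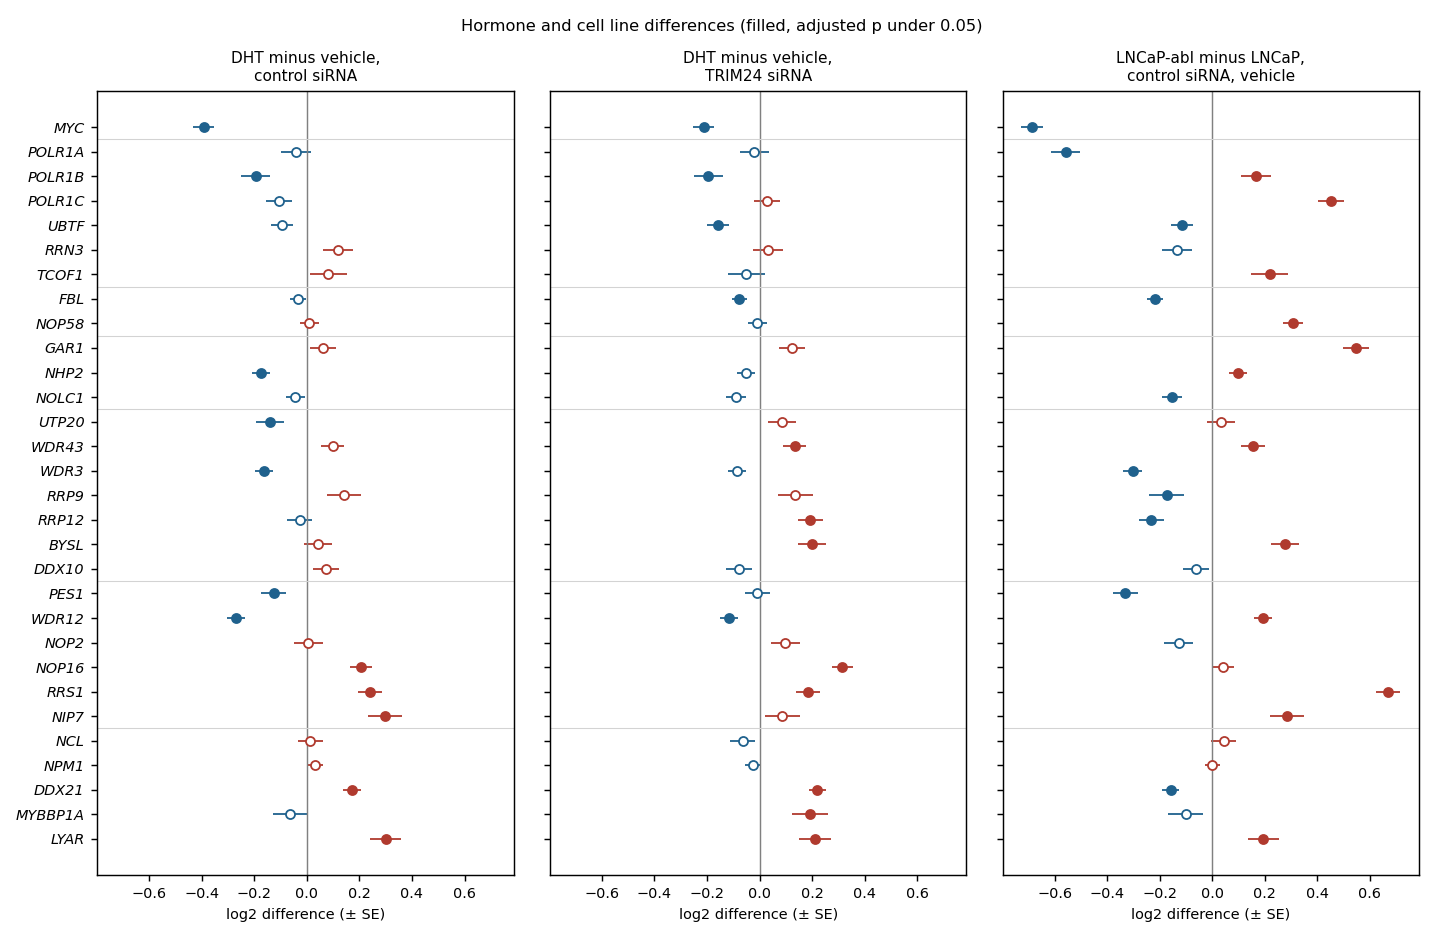
Differences on the log2 scale (x axis) of the 30 measured members for DHT minus vehicle in LNCaP with control siRNA and with TRIM24 siRNA, and for LNCaP-abl minus LNCaP with control siRNA and vehicle. Points are differences with standard errors, filled where the adjusted p is under 0.05; MYC lies left of 0 in all 3 panels, at -0.39, -0.21 and -0.68, and the LNCaP-abl panel is the widest.

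The wider machinery, from lists that hold none of the 36 genes, was counted in the same fit. The background to these counts is the share of all genes called. With vehicle 20.5% were higher and 18% lower, with DHT 19.4% and 20.8%, and in LNCaP-abl 16.7% and 28.8%. These shares apply to the knockdown counts of the further lists below as well, and no test was made of any list. After knockdown in LNCaP-abl, 24 of 46 measured small subunit and 23 of 46 large subunit assembly genes fell, with 4 and 2 that rose and medians of -0.11 and -0.15. RRP15, a large subunit factor, fell most among these by -0.75 ± 0.05, and GNL2 and BRIX1, also of the large subunit, changed by -0.55 ± 0.06 and -0.54 ± 0.07. TSR1, which blocks early joining of the small subunit to ribosomes, changed by -0.50 ± 0.05, and EMG1, a methyltransferase of 18S rRNA, by -0.42 ± 0.03. In LNCaP with vehicle 15 small subunit genes rose and 7 fell, and 13 large subunit genes rose and 8 fell. RRP15 changed by -0.48 ± 0.05 and EMG1 by -0.36 ± 0.03 there, while RRP1B and DDX52 rose by 0.40 ± 0.04 and 0.35 ± 0.06. With DHT the counts were 15 and 9 for the small and 14 and 6 for the large subunit, and URB1 rose by 0.52 ± 0.07.

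Further parts of polymerase I and of snoRNP assembly were counted too. The polymerase I list includes POLR2E, POLR2F, POLR2H, POLR2K and POLR2L, subunits that other RNA polymerases share. Of 15 further polymerase I genes, 2 rose and 3 fell in LNCaP with vehicle, 3 rose and 2 fell with DHT, and 8 fell in LNCaP-abl, the largest being POLR1G at -0.36 ± 0.06. That last count was 2 after quantile normalization. Of 13 snoRNP assembly genes, 4 rose and 1 fell with vehicle, 5 rose and 2 fell with DHT, and 1 rose and 10 fell in LNCaP-abl. Both lists stand against shares of all genes higher and lower of 20.5% and 18%, 19.4% and 20.8%, and 16.7% and 28.8% in these settings. COIL, the scaffold of Cajal bodies, fell by 0.37 ± 0.04 and NAF1, an H/ACA assembly factor, by 0.42 ± 0.10 in LNCaP-abl.

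Of 53 measured ribosomal protein genes 2 rose in LNCaP with vehicle, 2 rose and 1 fell with DHT, and 3 rose and 6 fell in LNCaP-abl, with medians of 0.02, 0.01 and -0.01. RPL36A was the largest in each, at 0.24, 0.25 and 0.40. Against LNCaP, 25 of the 53 were lower and 2 higher in LNCaP-abl, with a median of -0.06. Of all genes 34.6% were lower and 29.1% higher in that comparison. RPL11, which also binds MDM2, was lower by -0.36 ± 0.03.

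Partners and rivals of MYC changed too. MXD1, a repressor that competes with MYC for MAX, rose by 0.74 ± 0.05 after knockdown in vehicle-treated LNCaP, by 0.37 ± 0.05 under DHT and by 0.42 ± 0.05 in LNCaP-abl. MXI1, of the same family, and MNT rose by 0.41 ± 0.03 and 0.39 ± 0.05 with DHT. FBXW7, which marks MYC protein for degradation, rose by 0.36 ± 0.05 in LNCaP with vehicle, and AURKA, a mitotic kinase that can stabilise MYC proteins, changed by -0.42 ± 0.05, -0.50 ± 0.05 and -1.48 ± 0.05. In all, 6 of 16 partner genes rose and 3 fell in each LNCaP setting, and 5 rose and 4 fell in LNCaP-abl. DHT with control siRNA lowered MXI1 by -0.83 ± 0.03.

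Of 27 measured MYC targets outside the nucleolus, 6 rose and 8 fell in LNCaP with vehicle, 8 rose and 3 fell with DHT, and 2 rose and 16 fell in LNCaP-abl, with medians of -0.01, 0.02 and -0.14. The shares of all genes called higher and lower, given above for each setting, are the background to these counts, and no test was made of the list. GART, of purine synthesis, rose by 0.45 ± 0.04 and ODC1, the first enzyme of polyamine synthesis, changed by -0.42 ± 0.03 in LNCaP with vehicle. PPAT, the first enzyme of purine synthesis, rose by 0.42 ± 0.03 with DHT. In LNCaP-abl ODC1 changed by -0.55 ± 0.03, AHCY by -0.44 ± 0.03 and CDCA7 by -0.97 ± 0.08.

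**Figure D5:**
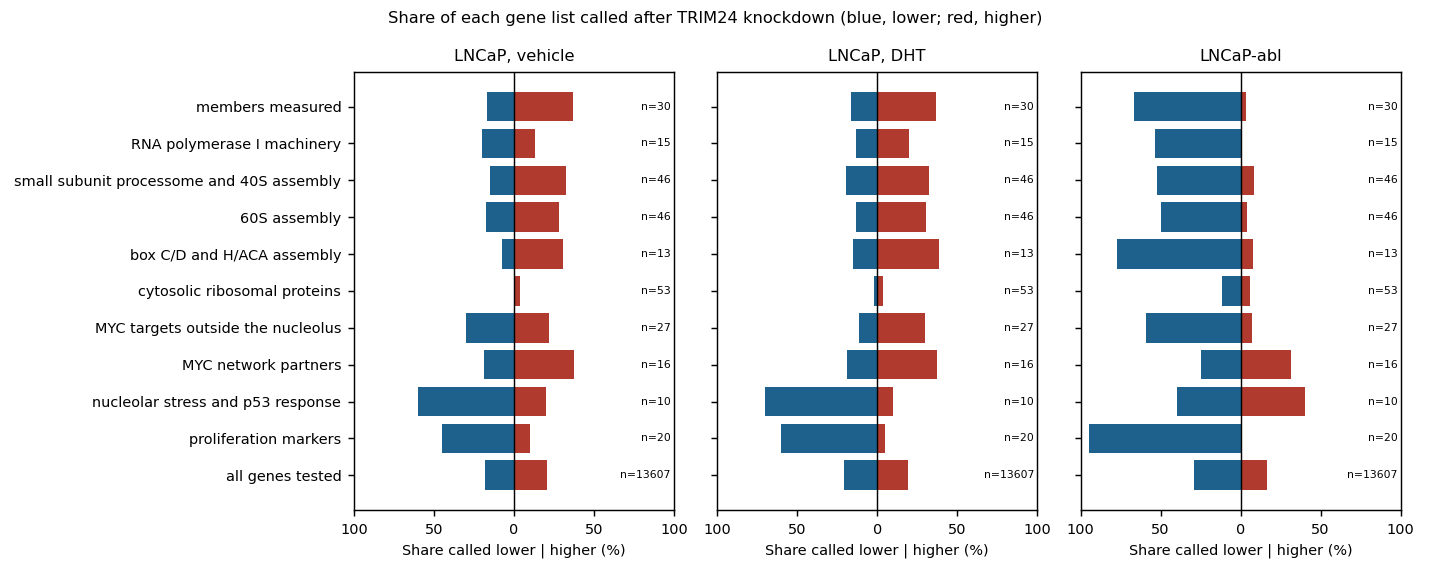
Share of each gene list called higher (red, right) or lower (blue, left) after TRIM24 knockdown, in percent of the genes measured (x axis), in vehicle-treated LNCaP, DHT-treated LNCaP and LNCaP-abl; n is the number of genes measured and the bottom bar is all 13607 genes. The blue bars of the assembly lists are longer in LNCaP-abl than in the LNCaP panels, with 24 of 46 small subunit and 10 of 13 snoRNP assembly genes lower, and the ribosomal protein bars are short in all 3.

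Members with and without CACGTG in the window printed above were set side by side. After knockdown in LNCaP-abl 8 of the 11 members with the motif and 8 of the 13 without it fell, with medians of -0.24 and -0.09. In LNCaP with vehicle 3 rose and 3 fell among the 11, and 4 rose and 1 fell among the 13. DDX21, BYSL and MYBBP1A, which carry the motif, fell there while MYC rose, and WDR43, LYAR and FBL, which also carry it, rose. For knockdown with DHT the counts were 3 and 2 among the 11, and 6 and 2 among the 13. DHT raised 2 and lowered 2 of the 11 with control siRNA, against 2 and 4 of the 13, and raised 5 and lowered 1 with TRIM24 siRNA, against 1 and 3. Between the lines 4 of the 11 were higher and 4 lower in LNCaP-abl, against 5 and 3 of the 13. These are counts over few genes and no test was made of them. They stand against the shares of all genes called higher and lower. Knockdown gave shares of 16.7% and 28.8% in LNCaP-abl. In LNCaP it gave 20.5% and 18% under vehicle, 19.4% and 20.8% under DHT. DHT itself gave 19.4% and 26.4% with control siRNA, 16.9% and 26.6% after TRIM24 siRNA. The contrast of the lines gave 29.1% and 34.6%.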

How the data were processed

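Total RNA of 18 samples was hybridised to Affymetrix arrays, 1 colour, 3 arrays in each of 6 groups taken from the sample labels. The authors deposited log2 expression values per probe set, summarised with RMA per the submitters' processing notes. The sources used here name no version of it, no build and no scan date. RMA brings the probe signals of all arrays to a common distribution before summarising them, so a shift shared by most transcripts cannot be measured here. The summarised values still differ slightly between arrays, with medians of 5.83 to 5.93. RMA also compresses dim signals.

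Probe sets were named from the platform annotation, with symbols updated by gene identifier. Of 54675 probe sets, 41097 list 1 symbol, 1801 several and 11777 none, and those with several named no gene. The brightest probe set stood for a gene, and genes whose third-highest value reached 5.88, the table's median, were tested. A group-means model over all 18 arrays was fitted with limma 3.58.1 in R 4.3.3 (12 residual degrees of freedom, two-sided tests, Benjamini-Hochberg adjustment over 13607 genes for each of 8 comparisons). The number of arrays, 3 a group, limits the precision. The members, gene lists and tests were chosen with earlier results of these data known.

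Array values are given for MYC and up to 8 called members with the largest change in a comparison, and for some others chosen after their values were seen. Up to 4 called genes of a list are named. Replicate numbers did not pair the samples: deviations of same-numbered arrays correlated between -0.30 and 0.20. No arrays were duplicates. The fit was tested on data simulated for knockdown in vehicle-treated LNCaP, DHT-treated LNCaP and LNCaP-abl. In each, 100 genes were changed by 0.25 and 100 by 0.5, and the rest of the 13607 were left unchanged. Of 100 changes of 0.25 it called 57, 52 and 55, and of 100 changes of 0.5 it called 95, 83 and 91. False calls were 9 of 161, 6 of 141 and 10 of 156. The deposited data gave calls for 38.5%, 40.2% and 45.6% of genes in these comparisons, far more than were changed in the simulation. The adjusted p depends on that share, so the simulated rates need not hold for the deposited data. A member that was not called can still have changed by such an amount, at a rate that the simulation does not give. Alternatives were other filters, probe set choices, scalings, variance models, thresholds, a replicate block, a covariate for 3′ to 5′ signal, and leaving out each array. Promoter windows come from RefSeq. Proteins were not used here.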

Additional observations from a re-analysis of the deposited data

Results flagged for a closer look

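For 16 member values the effect of the knockdown differed between 2 settings by the test of the difference itself, in limma's fit over 13607 genes.

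Between LNCaP-abl and LNCaP with vehicle the knockdown difference was lower in LNCaP-abl for LYAR by -0.59 (adjusted p = 0.000129), DDX10 by -0.41 (adjusted p = 0.000426), FBL by -0.36 (adjusted p = 1.56e-05), RRP9 by -0.36 (adjusted p = 0.00891), RRS1 by -0.34 (adjusted p = 0.00109) and NIP7 by -0.34 (adjusted p = 0.0139). It was also lower for WDR43 by -0.32, NOP58 by -0.27, NOLC1 by -0.27, POLR1B by -0.26, UBTF by -0.22, NCL by -0.21, BYSL by -0.21, MYC by -0.21 and WDR3 by -0.20, at limma adjusted p between 0.00146 and 0.0473. LYAR, DDX10, FBL, RRS1 and NOLC1 were called higher in LNCaP with vehicle and lower in LNCaP-abl. Not all of these single-line calls were stable. The rise of FBL was lost under 7 of 18 alternatives and the fall of RRS1 under 9 of 19. NOLC1 lost its rise under 5 of 19 and its fall under 4 of 19. For LYAR and DDX10 at most 2 alternatives lost either call. The difference between the lines lost its call with the mean of probe sets for DDX10, UBTF, WDR3 and NCL. That difference kept its call under every alternative run for FBL, LYAR, NOLC1, NOP58, RRP9, RRS1 and WDR43.

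Between DHT and vehicle in LNCaP the knockdown difference of RRP12 was 0.22 higher with DHT (limma adjusted p = 0.0447), and this call was lost under 19 of the 25 alternatives run.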

How the results depend on the processing

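Of 116 called member values, 54 were called under every alternative run, among them MYC in the 3 knockdown, both DHT and the LNCaP-abl comparisons and DDX21 in the same 6. MYC has a single probe set, whose suffix removed it when only _at probe sets were used. That setting measured 21 members in place of 30. It called 10 of them in each LNCaP knockdown comparison and 11 in LNCaP-abl. It also called 6 for DHT with control siRNA, 14 between the lines and 9 for the interaction with cell line. Over all genes it called 3910, 4030 and 4517 of 10430 for knockdown in vehicle-treated LNCaP, under DHT and in LNCaP-abl. For knockdown with DHT, 9 members were called at adjusted p under 0.01 and 4 with the 3′ to 5′ covariate; the cause was not tested. At adjusted p under 0.01, 9 were called for the interaction with cell line.

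The interaction with DHT called 1 member. It called 0 with no filter, with the most variable probe set, with the mean of probe sets, with only _at probe sets, after median centring, at adjusted p under 0.01 and with the replicate block, 4 with the stricter filter, 3 after quantile normalization, 5 with an intensity trend and robust variances and 2 with array weights.

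Leaving out 1 array gave 14 to 16, 12 to 14 and 17 to 19 called members for knockdown in vehicle-treated LNCaP, under DHT and in LNCaP-abl, 10 to 12 and 11 to 12 for DHT with control and TRIM24 siRNA, 16 to 22 between the lines, 0 to 1 for the interaction with DHT and 13 to 16 for that with cell line. The replicate block gave 15, 16, 19, 12, 13, 22, 0 and 14 in the same order, with 110 of 116 values kept.

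Directions reversed where a gene's probe sets disagree. With the mean of probe sets POLR1B was 0.13 in the knockdown with vehicle, UBTF -0.027 in the knockdown with DHT, WDR12 0.024 in LNCaP-abl, RRP12 -0.033 and WDR12 0.021 for DHT with TRIM24 siRNA, UBTF 0.0066 and NPM1 -0.15 between the lines, RRP12 -0.053 for the interaction with DHT and NCL 0.027 for that with cell line. With the most variable probe set UBTF was -0.11 in the knockdown with DHT, NOLC1 0.0098 in LNCaP-abl, POLR1B 0.068 and NPM1 -0.13 for DHT with control siRNA and NPM1 -0.32 between the lines. With only _at probe sets TCOF1 was -0.17 in the knockdown with vehicle, RRP12 0.038 with DHT and 0.093 in LNCaP-abl, POLR1B 0.068 and RRP12 -0.090 for DHT with control and with TRIM24 siRNA, and TCOF1 -0.052 and RRP12 0.016 between the lines.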

Other observations

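Genes of the p53 response, which nucleolar stress can raise, were measured beside the ribosome genes. Of 10 measured, 2 rose and 6 fell after knockdown in LNCaP with vehicle, 1 rose and 7 fell with DHT, and 4 rose and 4 fell in LNCaP-abl, with medians of -0.25, -0.17 and -0.03. The shares of all genes higher and lower were 20.5% and 18%, 19.4% and 20.8%, and 16.7% and 28.8% in the same order, and no test was made of the list. TNFRSF10B, a death receptor, rose in all 3 by 0.51 ± 0.03, 0.46 ± 0.03 and 0.34 ± 0.03. TP53I3, an oxidoreductase induced by p53, fell in all 3 by 0.51 ± 0.07, 0.56 ± 0.07 and 0.34 ± 0.07. In LNCaP-abl GDF15, a stress cytokine, rose by 0.32 ± 0.05 and FAS, a death receptor, by 0.23 ± 0.04. FAS fell by 0.38 ± 0.04 in LNCaP with vehicle, and GDF15 fell by 0.39 ± 0.05 in LNCaP with DHT. The tested differences between LNCaP-abl and LNCaP with vehicle were 0.57 for GDF15 and 0.61 for FAS. The fall of GDF15 with DHT is not part of that test.

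DHT changed single assembly genes more than any of the 30 measured members. PAK1IP1, a large subunit factor, rose by 2.23 ± 0.08 with control siRNA and by 1.93 ± 0.08 with TRIM24 siRNA, and POLR1F, a polymerase I subunit, by 0.83 ± 0.06 and 0.75 ± 0.06. ODC1 rose by 0.44 ± 0.03 and by 0.90 ± 0.03, a tested difference of 0.46 ± 0.04 (limma adjusted p = 5.86e-06). Between the lines UTP6 and RCL1, of the small subunit, were lower in LNCaP-abl by -0.99 ± 0.05 and -0.90 ± 0.04, and MYCBP2 by -1.91 ± 0.06.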
